A study of Mus musculus with 2 samples.

Results

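Described here are 10 mouse genes of the NF-κB pathway, chosen by symbol from the 32286 features counted in each library: the subunit genes Nfkb1, Nfkb2, Rela and Relb, the genes of the IκB family Nfkbia, Nfkbiz, Nfkbid and Bcl3, and Tnfaip3 and Tnip3, which encode A20 and its binding partner ABIN-3. All 10 were found in both libraries. The study compared cardiac leukocytes after loss of the Y chromosome (LOY) in the transplanted bone marrow with leukocytes from control transplants (BMT). Every animal in both groups had TAC, transverse aortic constriction, which loads the left ventricle with pressure. The LOY group is 1 library with the LOY genotype after TAC, and the control group is 1 library with the control genotype after TAC. Each library pooled viable RFP+CD45+ cells, the leukocytes that descend from the transplanted marrow, sorted from the enzyme-digested left ventricles of 3 mice. Host leukocytes without RFP were therefore not sampled, and neither strain, age, time after TAC nor the way the Y chromosome was removed is given in the sources used here. With 1 library per group no difference has a replicate check, so no test was made. Intervals are 95% exact Poisson or conditional intervals and cover counting error only.

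NF-κB is a family of dimeric transcription factors held in the cytoplasm by IκB proteins. Receptors for TNF, interleukin-1 and microbial products activate the IκB kinase, IκB is degraded, and the freed dimers enter the nucleus and switch on inflammatory genes. Among the genes they switch on are their own inhibitors, Nfkbia and Tnfaip3 foremost, so transcripts of the inhibitors are commonly read as a trace of recent NF-κB activity. Macrophages, the main leukocytes of the heart, use the pathway to make cytokines and chemokines.

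The LOY library held 5475 barcodes and 18710715 UMIs, and the control library held 7276 barcodes and 42640861 UMIs, where a UMI is a single captured transcript. The libraries shared 31 barcodes. After filters on depth, mitochondrial share and doublets, 5177 LOY cells with a median of 3006 UMIs and 6577 control cells with a median of 5069 UMIs remained. The mitochondrial share of UMIs, a sign of RNA quality, had a median of 1.94% in LOY and 3.24% in control cells, and in macrophage-like cells it was 2.17% of summed UMIs in LOY and 3.37% in control. With cells above 5% left out, the count of genes past 1.5-fold lower in macrophage-like cells was 5, as with them. Both medians lay below 5%, so this count cannot show the part of the mitochondrial share in the differences, which was not tested. Of 21 clusters, 8 were macrophage-like by their markers and held 2926 LOY and 4299 control cells. The 10 genes and the other subunit, IκB, upstream and negative regulator genes considered here were left out of clustering. Targets of NF-κB and immediate early genes were not left out. Clusters are called by their leading gene. Levels of the Y-linked genes Ddx3y, Eif2s3y, Kdm5d and Uty in LOY macrophage-like cells were 8.84% to 16.7% of those in control macrophage-like cells, the direction the labels give. In the same cells the markers of conventional dendritic cells summed to 166 CPM in LOY and 416 CPM in control, with 0 of 14 at 0 in either library, and those of neutrophils to 35.5 CPM in LOY and 57.8 CPM in control, with 4 of 13 at 0 in LOY. Erythroid markers summed to 1.72 CPM in LOY, with 3 of 7 at 0, and to 448 CPM in control. Their part in the values below was not tested.

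Sequence just upstream of a transcript start is shown for 5 of the 10 genes because NF-κB acts through κB motifs in promoters. The genes shown are Nfkbia, Tnfaip3 and Tnip3, which were lower in LOY macrophage-like cells, Nfkb2, which was somewhat higher, and Rela, which did not differ beyond counting error. Promoters in RefSeq (build GRCm38.p6, 250 bases before to 50 after each start) were found for 7 of the 10 genes, all but Nfkb1, Relb and Nfkbiz. A match to the κB consensus, searched by name on both strands, stood in at least 1 promoter of 5 of these 7 genes (Nfkb2, Nfkbia, Nfkbid, Tnfaip3 and Tnip3). It stood in 2382 of all 32851 promoters in the table (7.25%) and in at least 1 promoter of 2225 of 27025 genes (8.23%). A match is a run of letters, not a measured binding site. Genes with a match thus included Nfkb2, which was not lower in LOY cells. Capitals mark the matches below, 5′ to 3′ on the strand of the gene and ending before the start of a RefSeq transcript. For Tnfaip3, Tnip3 and Nfkb2 the stretch shown lies inside the span of the gene in GENCODE M21, before a transcript start further in. The Tnip3 gene, for example, begins at 65525313 there.
Nfkbia, chr12:55492648-55492897, minus strand: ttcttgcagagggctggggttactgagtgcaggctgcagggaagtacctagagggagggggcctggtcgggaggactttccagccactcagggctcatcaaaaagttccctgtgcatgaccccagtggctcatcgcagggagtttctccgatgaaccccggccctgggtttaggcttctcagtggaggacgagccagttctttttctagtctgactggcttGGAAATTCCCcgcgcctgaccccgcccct
Tnfaip3, chr10:19015411-19015547, minus strand: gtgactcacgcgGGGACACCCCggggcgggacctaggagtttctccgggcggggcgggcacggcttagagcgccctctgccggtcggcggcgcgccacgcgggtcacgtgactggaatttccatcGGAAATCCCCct
Tnip3, chr6:65590148-65590397, plus strand: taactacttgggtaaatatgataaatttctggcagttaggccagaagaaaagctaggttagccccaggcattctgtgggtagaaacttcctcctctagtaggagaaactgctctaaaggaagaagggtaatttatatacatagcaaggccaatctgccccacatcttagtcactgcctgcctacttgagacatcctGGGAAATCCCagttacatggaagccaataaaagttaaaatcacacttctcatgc
Nfkb2, chr19:46305445-46305694, plus strand: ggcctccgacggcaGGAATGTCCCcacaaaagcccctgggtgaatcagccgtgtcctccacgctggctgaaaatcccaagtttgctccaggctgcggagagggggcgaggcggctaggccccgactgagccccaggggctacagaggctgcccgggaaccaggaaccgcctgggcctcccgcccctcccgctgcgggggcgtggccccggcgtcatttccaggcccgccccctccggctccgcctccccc
Rela, chr19:5637291-5637482, plus strand: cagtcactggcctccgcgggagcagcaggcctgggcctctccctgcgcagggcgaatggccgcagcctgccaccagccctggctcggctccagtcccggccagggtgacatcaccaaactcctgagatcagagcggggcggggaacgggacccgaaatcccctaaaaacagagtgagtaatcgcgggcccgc
The Nfkbia match begins 29 bases before the start of its transcript. The Tnfaip3 matches begin 125 and 12 bases before the start of the Tnfaip3 transcript used. The Tnip3 match begins 54 bases before that of the Tnip3 transcript used. The Nfkb2 match shown begins 236 bases before the start of its transcript, and no match stood in the window of Rela. In another promoter of Nfkb2, not shown, matches begin 39, 38 and 11 bases before the start. A further promoter of Nfkb2 has a match 225 bases before its start. Another promoter of Tnfaip3, not shown, held no match.

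In macrophage-like cells Nfkbia, Nfkbiz, Tnfaip3 and Tnip3 were lower in the LOY library than in the control library, as was the subunit gene Nfkb1, whereas Rela and Bcl3 did not differ beyond counting error. Summed over all macrophage-like cells of a library and expressed as CPM, UMIs of the gene among 1000000 UMIs, 5 of the 10 genes were past 1.5-fold lower in LOY cells (Nfkb1, Nfkbia, Nfkbiz, Tnfaip3 and Tnip3) and 0 were past 1.5-fold higher. Of all 7871 genes measured in these cells, 7.88% were past 1.5-fold lower and 6.63% past 1.5-fold higher. The 1.5-fold limit was set on the log2 ratio with 10 CPM added to each library, and log2 ratios below are on that scale. On it the median of the 10 genes was −0.60, against −0.01 over all measured genes. All 10 genes were measured, at 10 CPM or more in at least 1 library. Summed over all cells kept, of every class, the same 5 genes were past 1.5-fold lower and 0 higher, against 9.03% of measured genes lower and 6.04% higher.

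Nfkbia encodes IκBα, the inhibitor that retains NF-κB in the cytoplasm. It stood at 275 CPM (2877 UMIs) in LOY macrophage-like cells and at 597 CPM (16486 UMIs) in control macrophage-like cells. The LOY over control fold was 0.460 (0.442 to 0.479). Its log2 ratio of −1.09 was lower than that of all but 1.49% of measured genes. Nfkbiz encodes IκBζ, a nuclear IκB protein that is needed for a subset of NF-κB targets such as Il6. It had 125 CPM in LOY cells and 236 CPM in control cells, a fold of 0.530 (0.499 to 0.562). Nfkbid, which encodes the nuclear protein IκBNS, had 32.8 CPM in LOY cells and 50.6 CPM in control cells. Its fold of 0.648 (0.574 to 0.729) was lower by more than counting error but, with a log2 ratio of −0.50, did not pass 1.5-fold. Bcl3, a nuclear IκB protein that binds dimers of p50 or p52, had 22.4 CPM in LOY cells and 24.9 CPM in control cells, and its fold of 0.897 (0.770 to 1.04) was within counting error of 1. The IκB genes thus differed from each other, with Nfkbia and Nfkbiz lowest in LOY cells relative to control and Bcl3 near equal.

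Tnfaip3 encodes A20, the ubiquitin-editing enzyme that ends signalling upstream of the IκB kinase. It had 22.3 CPM (233 UMIs) in LOY macrophage-like cells and 66.4 CPM (1832 UMIs) in control macrophage-like cells. Its fold was 0.336 (0.292 to 0.385) and its log2 ratio −1.24, the lowest of the 10 genes. Only 0.877% of measured genes had a lower ratio. Tnip3, which encodes the A20-binding protein ABIN-3, had 11.7 CPM in LOY cells and 32.2 CPM in control cells, a fold of 0.362 (0.297 to 0.438).

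Among the subunits, Nfkb1 alone passed 1.5-fold. Nfkb1 encodes p105, the precursor of the DNA-binding subunit p50 and itself an IκB-like protein. It had 53.0 CPM in LOY macrophage-like cells and 92.5 CPM in control macrophage-like cells, a fold of 0.572 (0.521 to 0.628) and a log2 ratio of −0.70. Rela encodes p65, the subunit that activates transcription in the canonical pathway. It had 68.7 CPM in LOY cells and 64.0 CPM in control cells, and its fold of 1.07 (0.984 to 1.17) was within counting error of 1. Nfkb2 encodes p100, the precursor of p52 in the noncanonical pathway. It was the only one of the 10 genes whose interval lay above 1, with 45.3 CPM in LOY cells and 36.3 CPM in control cells and a fold of 1.25 (1.12 to 1.39), short of 1.5-fold. Its partner Relb had 24.8 CPM in LOY cells and 35.3 CPM in control cells, a fold of 0.701 (0.609 to 0.805), also short of it. In the annotation Nfkb2 overlaps Psd on the opposite strand and Bcl3 overlaps Gm16174 and Gm16175 on the opposite strand. The strand setting of the counting is not stated, so reads of such pairs may be mixed.

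**Figure D1:**
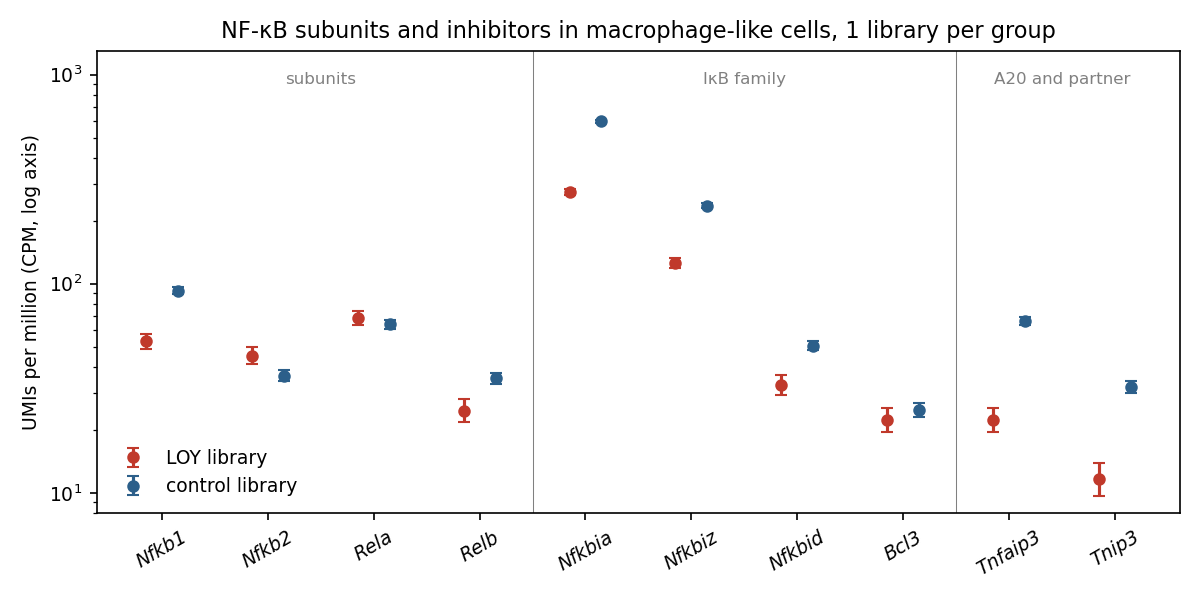
Levels of the 10 genes in macrophage-like cells, in CPM of summed UMIs on a log axis, with the LOY library left of the control library for each gene and 95% exact Poisson intervals as bars. Nfkbia (275 CPM in LOY, 597 CPM in control), Nfkbiz, Nfkb1, Tnfaip3 and Tnip3 lie lower in LOY, whereas Rela (68.7 CPM in LOY, 64.0 CPM in control) nearly coincides.

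The macrophage-like cells of the libraries were spread differently over the clusters, which touches these values. A cluster led by Egr1, Cxcl2 and Ccl4 held 1.67% of LOY and 22.9% of control macrophage-like cells, and a cluster led by Spp1 held 51.2% of LOY and 0.535% of control macrophage-like cells. Where nearly all cells of a cluster come from 1 library, library and cell state cannot be told apart. The Egr1 cluster held 6.64% of the Nfkbia UMIs of LOY macrophage-like cells and 46.8% of those of control macrophage-like cells. For Tnfaip3 the shares were 5.58% in LOY and 50.1% in control, and for Tnip3 12.3% in LOY and 53.7% in control. Nfkbiz, although not used to form the clusters, was among the 10 leading genes of this one. Targets of NF-κB such as Cxcl2 and Ccl4 were not left out of clustering. Levels of the inhibitors in this cluster are therefore not independent of how it was formed. For Nfkb1 the shares were 0.542% in LOY, on few UMIs and below the share of cells, and 22.1% in control, about the share of cells. In the 986 control cells of the Egr1 cluster Nfkbia stood at 1234 CPM, Nfkbiz at 524 CPM and Tnfaip3 at 147 CPM. The 49 LOY cells there had 1174 CPM of Nfkbia, 565 CPM of Nfkbiz and 79.9 CPM of Tnfaip3. The fold of Nfkbia in that cluster was 0.951 (0.819 to 1.098), so on these few LOY cells the gene did not differ beyond counting error.

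Without the Egr1 cluster, an alternative chosen after seeing the data, 3 of the 10 genes remained past 1.5-fold lower in LOY macrophage-like cells: Nfkb1 at a log2 ratio of −0.70, Nfkbia at −0.64 and Tnfaip3 at −0.75. Nfkbiz was then at −0.34 and Tnip3 at −0.52. Nfkb1 had the same value with and without the cluster. When each of 5 clusters with enough cells was given equal weight instead, 2 genes passed, Nfkb1 at −0.69 and Tnfaip3 at −0.63, and Nfkbia was at −0.55.

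Within single clusters Nfkbia was past 1.5-fold lower in LOY cells in the Lyve1 and Hist1h1b clusters and not in the H2-Eb1 cluster. The Lyve1 cluster, cells with markers of resident macrophages, held 498 LOY and 639 control cells. There 4 of the 10 genes were past 1.5-fold lower (Nfkb1, Nfkbia, Nfkbiz and Tnfaip3) and 0 higher, where 8.48% of measured genes were lower and 5.55% higher. Nfkbia had 215 CPM in LOY cells and 427 CPM in control cells, a fold of 0.504 (0.455 to 0.557). Tnfaip3 had 15.9 CPM in LOY cells and 55.8 CPM in control cells, a fold of 0.284 (0.194 to 0.405). Nfkb2 had 53.0 CPM in LOY cells and 35.5 CPM in control cells, a fold of 1.495 (1.17 to 1.90), short of 1.5-fold on the log2 scale but above 1 by more than counting error. Rela, at 71.1 CPM in LOY cells and 70.3 CPM in control cells, was level.

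The Hist1h1b cluster, cells with markers of the cell cycle, held 377 LOY and 157 control cells. Here 5 genes were past 1.5-fold lower in LOY cells (Nfkb1, Nfkbia, Nfkbiz, Nfkbid and Tnfaip3) and 0 higher, against 11.4% of measured genes lower and 6.6% higher. Nfkbia had 219 CPM in LOY cells and 461 CPM in control cells, a fold of 0.474 (0.420 to 0.535). Tnfaip3 had 14.4 CPM in LOY cells and 48.5 CPM in control cells, a fold of 0.296 (0.186 to 0.461). Tnip3 turned the other way within this cluster, with 20.0 CPM in LOY cells and 17.4 CPM in control cells, but its fold of 1.15 (0.695 to 1.93) was within counting error of 1.

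The H2-Eb1 cluster, led by genes of MHC class II, held 287 LOY and 1209 control cells and had 2 genes past 1.5-fold lower in LOY cells, Nfkb1 and Bcl3, and 0 higher. The share over all measured genes was 10.1% lower and 7.94% higher. Bcl3, at a log2 ratio of −0.69, rested on few UMIs in LOY cells. Nfkb1 had 38.9 CPM (24 UMIs) in LOY cells and 85.3 CPM (489 UMIs) in control cells, a fold of 0.456 (0.289 to 0.687). Nfkbia had 222 CPM in LOY cells and 272 CPM in control cells, a fold of 0.816 (0.680 to 0.972). Nfkbiz had 100.4 CPM in LOY cells and 89.3 CPM in control cells, and its fold of 1.13 (0.850 to 1.47) held 1. The fold of Tnfaip3, 0.729 (0.306 to 1.49), rests on 8 UMIs in LOY cells and held 1 as well. The intervals of the Nfkbia fold in the Lyve1 and H2-Eb1 clusters did not overlap, whereas those of Nfkb1 and of Tnfaip3 did.

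**Figure D2:**
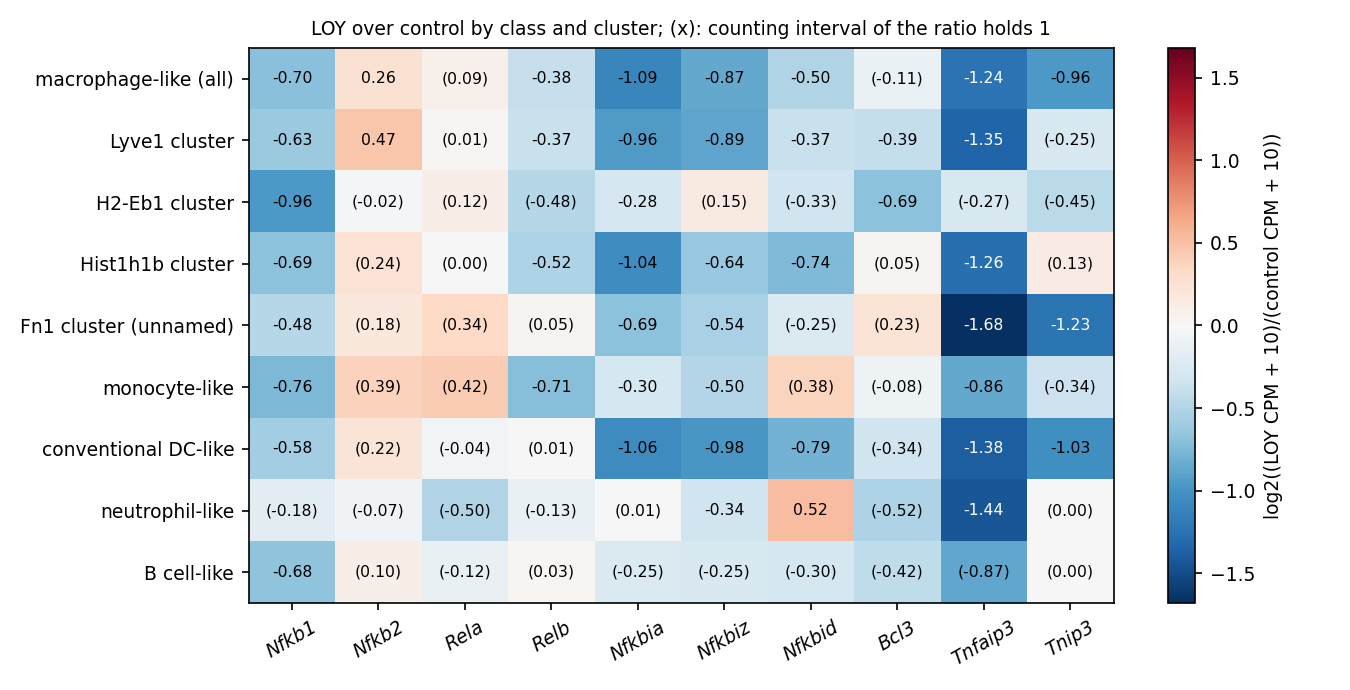
Log2 ratio of LOY over control with 10 CPM added for each of the 10 genes (columns) in each class and cluster with at least 100 cells in both libraries (rows), blue for lower and red for higher in LOY, with values in parentheses where the counting interval of the fold holds 1. Every Tnfaip3 and Nfkb1 value shown is below 0, Nfkbia ranges between −1.09 in macrophage-like and 0.01 in neutrophil-like cells, and every Rela value is in parentheses.

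The Fn1 cluster, with 334 LOY and 227 control cells, was left without a cell type name because its markers were mostly those of macrophages but its leading genes held more markers of monocytes. Tnip3, although not used to form it, was among its 10 leading genes. The cluster carried the highest Tnip3 level of all clusters compared, 70.9 CPM (86 UMIs) in LOY cells and 179 CPM (350 UMIs) in control cells. The fold was 0.396 (0.309 to 0.502). With it, Nfkbia and Tnfaip3 made up the 3 genes past 1.5-fold lower here, and 0 were higher, against 11.2% of measured genes lower and 8.51% higher. Tnfaip3 had 9.06 CPM in LOY cells and 51.1 CPM in control cells, a fold of 0.177 (0.0857 to 0.331), the lowest Tnfaip3 fold of the clusters compared. Neutrophil markers summed to 119 CPM in the LOY cells and 22.0 CPM in the control cells of this cluster, with 4 of 13 markers at 0 in each, and their part in the result was not tested.

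Outside the macrophage-like class, 4 classes had at least 100 cells in both libraries. In monocyte-like cells (216 LOY, 235 control) 3 genes were past 1.5-fold lower in LOY cells, Nfkb1, Relb and Tnfaip3, and 0 higher, against 14.6% of measured genes lower and 7.96% higher. Nfkb1 had 102 CPM in LOY cells and 180.1 CPM in control cells, a fold of 0.568 (0.421 to 0.757). Nfkbia, by contrast with the macrophage-like class, had 587 CPM in LOY cells and 726 CPM in control cells, a fold of 0.808 (0.713 to 0.915). Tnfaip3 and Relb each rested on 12 UMIs in LOY cells, with folds of 0.452 (0.222 to 0.844) for Tnfaip3 and 0.515 (0.252 to 0.971) for Relb. Macrophage markers summed to 11356 CPM in LOY and 5832 CPM in control monocyte-like cells, with 2 of 17 at 0 in each. Neutrophil markers summed to 559 CPM in LOY, with 2 of 13 at 0, and 197 CPM in control, with 3 of 13 at 0. The part of either in the result was not tested.

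In dendritic cell-like cells (164 LOY, 139 control), whose leading genes Cd209a and Xcr1 mark conventional dendritic cells, 5 genes were past 1.5-fold lower in LOY cells and 0 higher, against 16% of measured genes lower and 10.1% higher. They were Nfkbia, Nfkbiz, Nfkbid, Tnfaip3 and Tnip3, all inhibitors or atypical IκB proteins, and Nfkb1 at a log2 ratio of −0.58 lay just short of 1.5-fold. Nfkbia had 476 CPM in LOY cells and 1004 CPM in control cells, a fold of 0.474 (0.417 to 0.538). Tnfaip3 had 32.2 CPM in LOY cells and 100.1 CPM in control cells, a fold of 0.321 (0.190 to 0.516). Relb, the subunit most tied to dendritic cell maturation, had 114 CPM in LOY cells and 113 CPM in control cells, its highest level among the classes and clusters compared in each library, and its fold of 1.01 (0.752 to 1.34) held 1. NK cell markers summed to 1813 CPM in LOY and 595 CPM in control cells of this class, with 4 of 11 at 0 in each, and dendritic cell markers to 2090.0 CPM in LOY and 3444 CPM in control, with 0 of 14 at 0. Their part in the result was not tested.

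In neutrophil-like cells (125 LOY, 289 control) 1 gene, Tnfaip3, was past 1.5-fold lower and 0 were higher, against 17.9% of measured genes lower and 18.6% higher. Tnfaip3 had 113 CPM (15 UMIs) in LOY cells and 326 CPM (232 UMIs) in control cells, a fold of 0.348 (0.192 to 0.586). Nfkbia was level, at 1934 CPM in LOY cells and 1921 CPM in control cells, with a fold of 1.01 (0.878 to 1.15). Nfkbid pointed the other way from the macrophage-like class, with 468 CPM in LOY cells and 324 CPM in control cells and a fold of 1.44 (1.07 to 1.92), short of 1.5-fold on the log2 scale. The median neutrophil-like cell held 830 UMIs in LOY and 2032 in control, so values of the LOY library are coarse here. Tnip3 had 0 UMIs in LOY cells, which allows up to 22.7 CPM, and 9 UMIs in control cells, so no fold is given. Macrophage markers summed to 5281 CPM in LOY and 2875 CPM in control neutrophil-like cells, with 2 of 17 at 0 in LOY and 1 in control, and their part was not tested.

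In B cell-like cells (237 LOY, 803 control) Nfkb1 and Tnfaip3, 2 genes, were past 1.5-fold lower and 0 higher, against 19.3% of measured genes lower and 9.88% higher. Nfkb1 had 68.5 CPM in LOY cells and 116 CPM in control cells, a fold of 0.591 (0.325 to 0.999). Tnfaip3 rested on 2 UMIs in LOY cells and 44 in control cells, and its interval of 0.0429 to 1.40 held 1. Nfkb2 had 86.7 CPM in LOY cells and 80.0 CPM in control cells, a fold of 1.08 (0.634 to 1.76). Tnip3 had 0 UMIs in the B cell-like cells of either library, which allows up to 13.7 CPM in LOY and 1.702 CPM in control. Macrophage markers summed to 2689 CPM in LOY, with 5 of 17 at 0, and 933 CPM in control B cell-like cells, with 0 at 0, and their part was not tested. Across the 5 classes the count of genes past 1.5-fold lower was furthest above the share of all genes in macrophage-like and dendritic cell-like cells. Tnfaip3 was past 1.5-fold lower in all 5 classes, with an interval that held 1 in B cell-like cells, and Rela was in none of them.

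**Figure D3:**
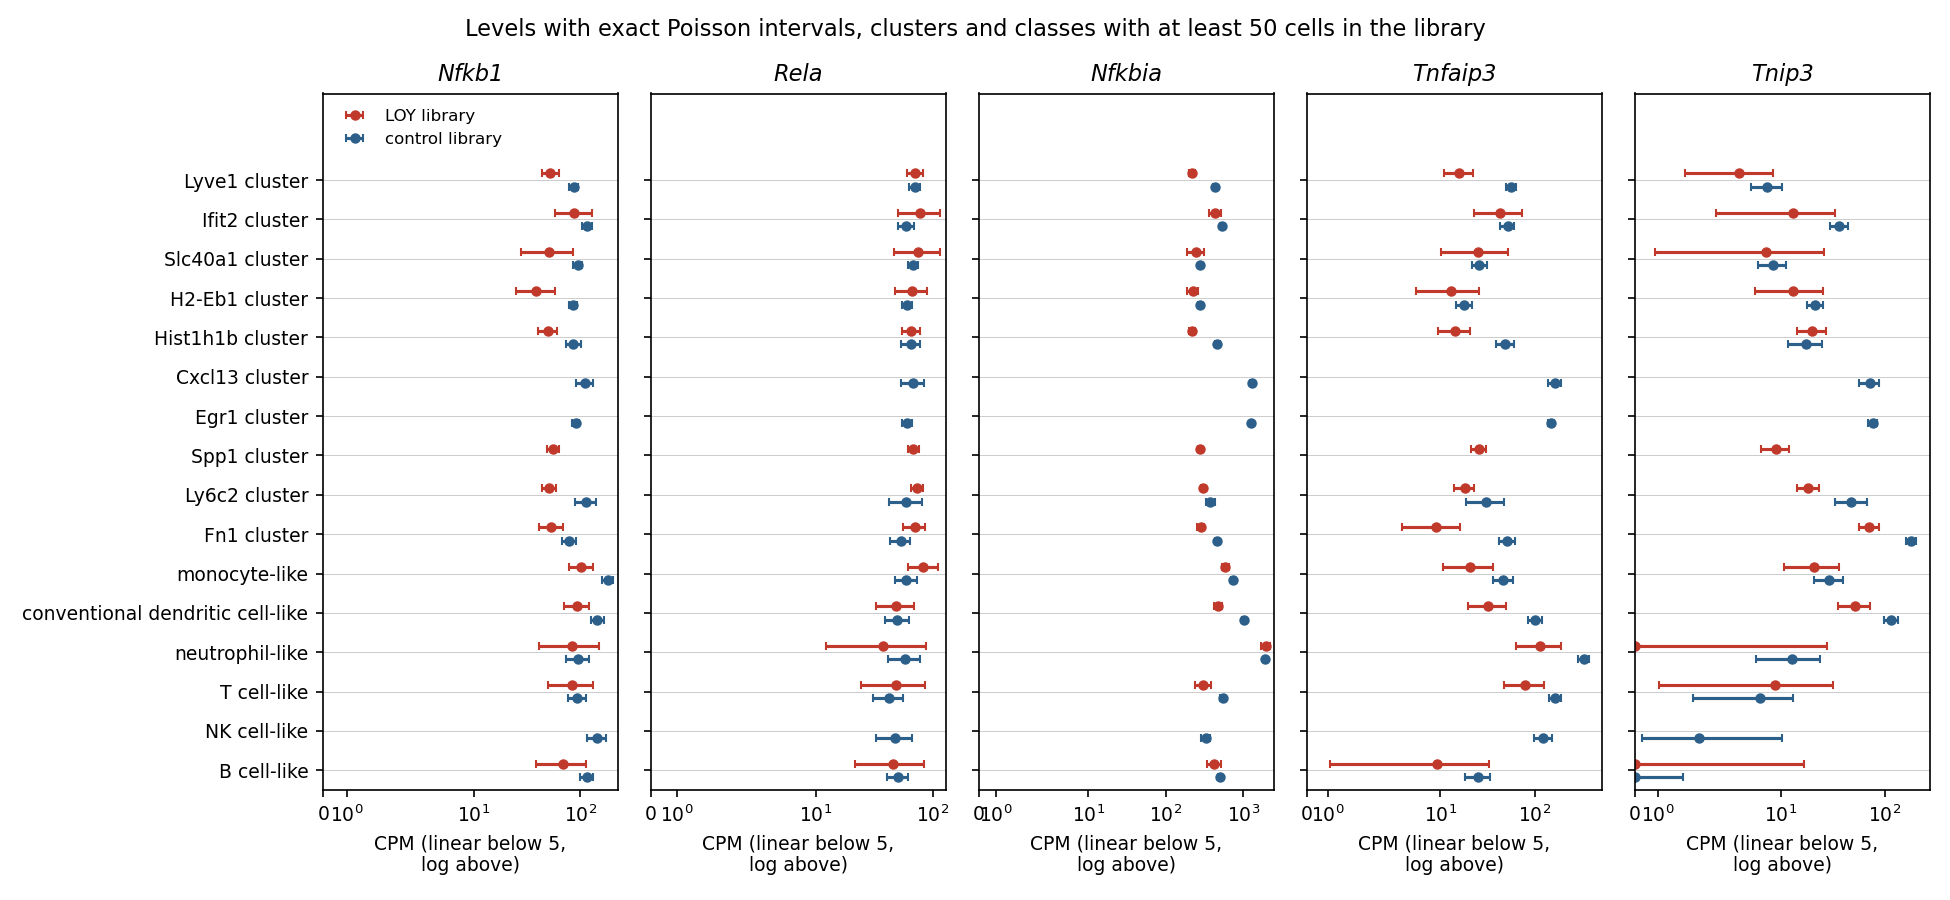
Levels of Nfkb1, Rela, Nfkbia, Tnfaip3 and Tnip3 in CPM of summed UMIs (linear below 5, log above) in each class and cluster with at least 50 cells in the library, with LOY points above control points and 95% exact Poisson intervals as bars. Nfkbia and Tnfaip3 are highest in neutrophil-like cells of both libraries, Tnip3 in the Fn1 cluster and Nfkb1 in monocyte-like cells, and Rela is nearly level.

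The order of cell types differed between the genes. These 3′ UMI counts are not scaled to transcript length, so levels are set against each other within a gene only. Nfkbia, Nfkbiz, Nfkbid, Bcl3 and Tnfaip3 were each highest in neutrophil-like cells in both libraries, although the LOY intervals of Tnfaip3 and Bcl3 overlapped those of the next class. Among LOY classes and clusters with at least 50 cells, the neutrophil-like Nfkbia level of 1934 CPM stood apart from the next, 587 CPM in monocyte-like cells. The LOY Egr1 cluster (49 cells) and the LOY Cxcl13 cluster (43 cells) fell below that limit and were not ranked. The control neutrophil-like level of 1921 CPM was followed by the Cxcl13 cluster at 1288 CPM and the Egr1 cluster at 1234 CPM, whose intervals overlapped. The lowest Nfkbia levels were 215 CPM in the LOY Lyve1 cluster and 272 CPM in the control H2-Eb1 cluster. Nfkbid was next highest in B cell-like cells, at 142 CPM in LOY and 176 CPM in control, apart from its neighbours in both libraries.

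Nfkb1 was highest in monocyte-like cells of both libraries, at 102 CPM in LOY and 180.1 CPM in control, and Nfkb2 was highest in B cell-like cells, at 86.7 CPM in LOY and 80.0 CPM in control, but both overlapped the next class in both libraries. Tnip3 was highest in the Fn1 cluster and next in dendritic cell-like cells, at 51.4 CPM in LOY and 115 CPM in control. These levels of Tnip3 stood apart in control and overlapped in LOY, as did those of Relb in dendritic cell-like cells and the class next to them. Rela spanned the narrowest range, 37.8 to 83.3 CPM in LOY and 42.1 to 70.3 CPM in control, and its neighbours in that order overlapped throughout.

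In T cell-like cells, with 97 LOY cells below the 100 used for a comparison, Tnfaip3 had 79.3 CPM in LOY and 163 CPM in control, and Nfkbia had 304 CPM in LOY and 542 CPM in control. In the Ifit2 cluster, cells with interferon response genes (85 LOY, 394 control), Nfkbia had 427 CPM in LOY and 525 CPM in control, and Nfkb2 had 75.0 CPM in LOY and 41.0 CPM in control. In the Slc40a1 cluster, led by the iron exporter gene (88 LOY, 750 control), Nfkbia had 242 CPM in LOY and 279 CPM in control, and Nfkb1 had 50.5 CPM in LOY and 94.3 CPM in control. Nfkbia was thus closer between the libraries in these clusters than in the Lyve1 cluster, while Nfkb1 in the Slc40a1 cluster had a fold of 0.535 (0.290 to 0.907). The Ly6c2 cluster, left without a cell type name, held 962 LOY cells and 94 control cells, also below 100. There the 10 genes summed to 731 CPM in LOY and 962 CPM in control. In the 1499 LOY cells of the Spp1 cluster they summed to 709 CPM.

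Genes that respond to tissue digestion and other acute stimuli were lower in LOY macrophage-like cells too. A list of 30 such immediate early and heat shock genes summed to 11353 CPM in LOY macrophage-like cells and 22147 CPM in control macrophage-like cells. Of the 30, 23 were past 1.5-fold lower and 0 higher, against 7.88% of measured genes lower and 6.63% higher. The median log2 ratio of the 30 was −1.20. The lowest were Btg2, with 159 CPM in LOY cells and 1141 CPM in control cells, and Cebpb, with 101.5 CPM in LOY cells and 669 CPM in control cells. The highest were Hspe1, with 291 CPM in LOY cells and 206 CPM in control cells, and Hspa8, with 1789 CPM in LOY cells and 1717 CPM in control cells. In the Lyve1 cluster the sum was 11106 CPM in LOY and 19291 CPM in control with a median of −1.14, and in the H2-Eb1 cluster it was 11199 CPM in LOY and 13737 CPM in control with a median of −0.10. In the Hist1h1b cluster the median was −0.93 and in the Fn1 cluster −0.62. The log2 ratios of Nfkbia, −0.96 in the Lyve1, −1.04 in the Hist1h1b, −0.69 in the Fn1 and −0.28 in the H2-Eb1 cluster, were likewise nearest to 0 in the H2-Eb1 cluster, whereas Tnfaip3 was lowest in the Fn1 cluster at −1.68. Over 13 points, the macrophage-like clusters of each library with at least 50 cells, Pearson's r with the list was 0.906 for Nfkbia, 0.919 for Nfkbiz, 0.899 for Nfkbid and 0.901 for Tnfaip3. It was 0.788 for Tnip3 and 0.498 for Bcl3. Among the subunits it was 0.701 for Nfkb1, 0.554 for Relb, −0.11 for Nfkb2 and −0.46 for Rela. In the H2-Eb1 cluster, where the list's median was −0.10, Nfkb1 had a log2 ratio of −0.96 on few LOY UMIs. The 13 points share 2 libraries and their depth, so these are descriptions. The part of digestion in the levels of the inhibitors and of Nfkb1 was not tested.

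**Figure D4:**
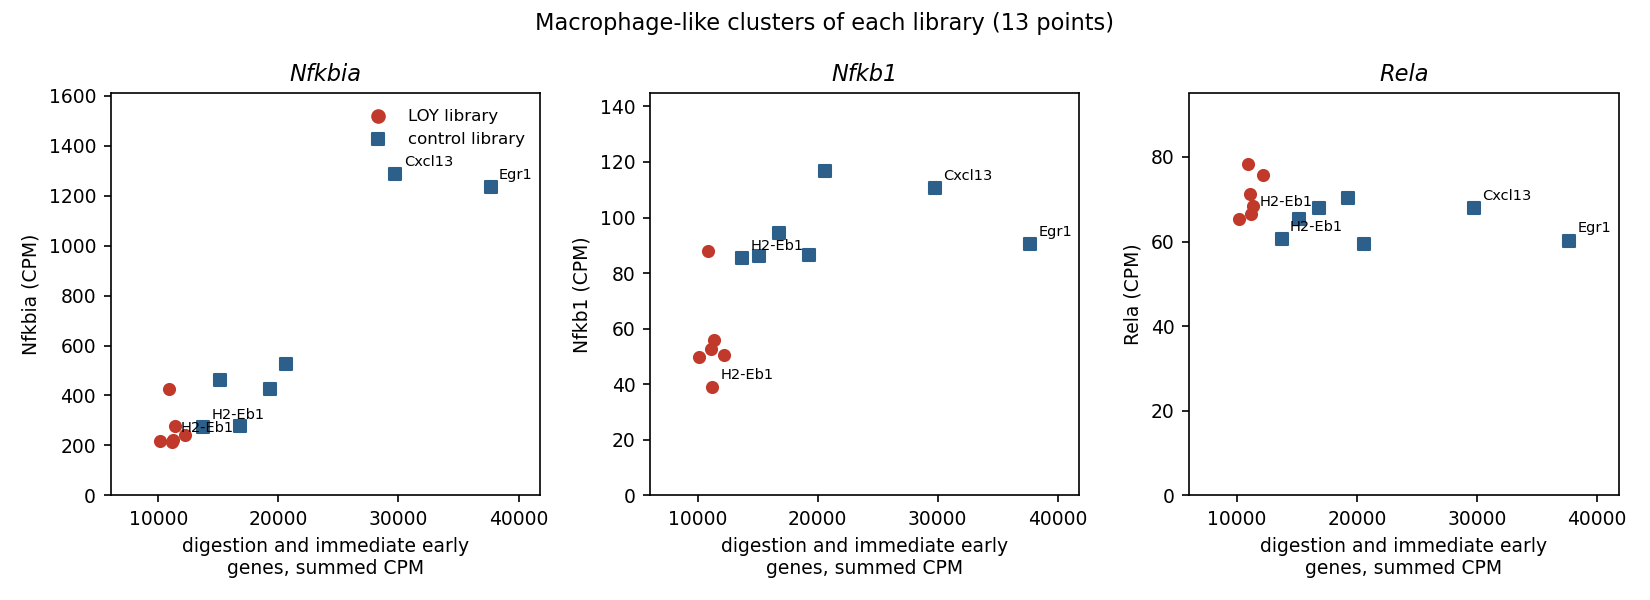
Levels of Nfkbia, Nfkb1 and Rela against the summed level of the 30 digestion and immediate early genes, both in CPM on linear axes, with 1 point per macrophage-like cluster and library of at least 50 cells (13 points). The control Egr1 and Cxcl13 clusters are highest in the list and in Nfkbia, LOY and control points separate along the Nfkb1 axis with the LOY Ifit2 cluster (88.0 CPM) as the exception, and Rela is nearly level.

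Among all 4238 genes compared over the same 13 points, the profile most like that of Nfkbia was that of Tnfaip3 (r = 0.985), followed by Nfkbiz (0.971) and Coq10b (0.957). For Tnfaip3 they were Nfkbia (0.985), Nfkbiz (0.961) and Csrnp1 (0.952). For Nfkbiz the closest was Ppp1r15a, a gene of the digestion list (0.977), then Nfkbia (0.971) and Tnfaip3 (0.961), and for Nfkbid it was Ppp1r15a (0.963), Tnfaip3 (0.950) and Kdm6b (0.947). Tnip3 was most like Phlda1 (0.928), Tnf (0.898) and Gadd45g (0.884). The subunits had other neighbours. Nfkb1 was most like Fxr1 (0.951), Sh3bp2 (0.941) and Lcp2 (0.939), and Relb like Sh3bp2 (0.929), Ube2d3 (0.904) and Nsfl1c (0.892). Nfkb2 was most like Plcg2 (0.893), Cmip (0.873) and Hif1a (0.866), and Rela like Tm9sf4 (0.913), Herc2 (0.892) and Strn3 (0.886). Bcl3 was most like Arl8a (0.901), Myd88 (0.853) and Gna13 (0.827). Nfkbia, Nfkbiz and Tnfaip3 were thus among each other's 3 nearest profiles, and none of the 4 subunits was among theirs.

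The rest of the pathway differed less between the libraries in macrophage-like cells. Of all measured genes in these cells, 7.88% were past 1.5-fold lower and 6.63% higher. Of 4 other subunit and IκB genes measured, 0 passed 1.5-fold in either direction, with a median log2 ratio of −0.09. Rel, which encodes the fifth subunit c-Rel, had 81.6 CPM in LOY cells and 89.5 CPM in control cells, and Nfkbie, which encodes IκBε, had 28.2 CPM in LOY cells and 34.6 CPM in control cells. Nfkbil1 had 42.7 CPM in LOY cells and 30.4 CPM in control cells, and Nfkbib, which encodes IκBβ, had 30.1 CPM in LOY cells and 32.0 CPM in control cells. Of 27 adaptors, kinases and ubiquitin ligases upstream, 3 were past 1.5-fold lower and 1 higher, with a median of −0.05. The lowest were Bcl10, an adaptor of antigen and lectin receptors, with 44.0 CPM in LOY cells and 108 CPM in control cells, and Birc3, the ubiquitin ligase cIAP2 and a known NF-κB target, with 22.1 CPM in LOY cells and 50.2 CPM in control cells. The highest were Ikbke, an IκB kinase-related gene, with 14.5 CPM in LOY cells and 6.63 CPM in control cells, and Sharpin, a part of the linear ubiquitin ligase, with 43.6 CPM (456 UMIs) in LOY cells, against 690 UMIs in the deeper control cells and a fold of 1.74 (1.55 to 1.97). Of 14 other negative regulators, 1 was past 1.5-fold lower and 0 higher, with a median of −0.27. In that group Commd1 had 70.0 CPM in LOY cells and 111 CPM in control cells, and Tnip1, which encodes ABIN-1, had 35.6 CPM in LOY cells and 23.2 CPM in control cells. Pdlim2 had 31.6 CPM in LOY cells and 47.3 CPM in control cells, and Otulin, which removes linear ubiquitin chains, had 72.8 CPM in LOY cells and 56.6 CPM in control cells. The other 13 of these 14 regulators thus lay within 1.5-fold, unlike Tnfaip3 and Nfkbia.

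Targets of NF-κB differed by class. In macrophage-like cells 7.88% of measured genes were past 1.5-fold lower and 6.63% higher. Of 12 cytokine and chemokine targets measured there, 6 were past 1.5-fold lower and 1 higher, with a median log2 ratio of −0.69. The Egr1 cluster, led in part by such targets as Cxcl2 and Ccl4, held 1.67% of LOY and 22.9% of control macrophage-like cells. Its part in the values of the targets was not tested. Il1b, which encodes interleukin-1β, had 153 CPM in LOY cells and 519 CPM in control cells, and Ccl2, the monocyte attractant, had 83.0 CPM in LOY cells and 272 CPM in control cells. Ccl5 went the other way, with 139 CPM in LOY cells and 48.7 CPM in control cells, and Ccl3 had 182 CPM in LOY cells and 184 CPM in control cells. Of 21 other targets, 6 were past 1.5-fold lower and 1 higher, with a median of −0.42. Junb, which also stands in the digestion list, had 563 CPM in LOY cells and 1402 CPM in control cells, and Cd83 had 139 CPM in LOY cells and 336 CPM in control cells. The survival gene Bcl2l1 had 78.9 CPM in LOY cells and 43.2 CPM in control cells, and Slc2a6 had 10.9 CPM in LOY cells and 5.87 CPM in control cells. Of the cytokine and chemokine targets in the Hist1h1b cluster, 6 of 12 were past 1.5-fold lower and 1 higher, with a median of −0.64. Of all measured genes there, 11.4% were lower and 6.6% higher. In the Lyve1 cluster 4 of 12 were lower and 2 higher (median −0.25), against 8.48% and 5.55% of measured genes. In dendritic cell-like cells 7 of 12 were lower and 1 higher (median −0.95), against 16% and 10.1%. The cytokine and chemokine targets were not lower throughout. In the H2-Eb1 cluster 1 of 11 measured was past 1.5-fold lower and 4 higher, with a median of 0.39. Of all measured genes there, 10.1% were lower and 7.94% higher. In the monocyte-like class 1 of 12 was lower and 3 higher, with a median of 0.24. The share of all measured genes in that class was 14.6% lower and 7.96% higher. In the Fn1 cluster 3 of 12 were lower and 3 higher, against 11.2% of measured genes lower and 8.51% higher. In neutrophil-like cells 2 of 13 were lower and 4 higher, against 17.9% of measured genes lower and 18.6% higher. Only 2 were measured in B cell-like cells, 0 lower and 1 higher, against 19.3% of measured genes lower and 9.88% higher.

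Within each library the macrophage-like cells were also split by whether a UMI of Ddx3y, Eif2s3y, Kdm5d or Uty was seen. A UMI may come from free RNA and its lack from shallow depth, so the split is of detection and not of genotype. In the LOY library 2809 cells lacked such a UMI and 117 had one. LOY cells without one were shallower, with a median of 3087 UMIs against 4059 in LOY cells with one. Nfkbia had 274 CPM in LOY cells without a Y-linked UMI and 299 CPM in LOY cells with one, a fold of 0.916 (0.784 to 1.08). Tnfaip3 had 22.0 CPM in LOY cells without one and 26.5 CPM in LOY cells with one, a fold of 0.831 (0.493 to 1.51). Nfkb1 had 54.2 CPM in LOY cells without one and 31.8 CPM (18 UMIs) in LOY cells with one, a fold of 1.703 (1.07 to 2.90), opposite in direction to the difference between the libraries. Nfkb2 had 46.6 CPM in LOY cells without one and 23.0 CPM in LOY cells with one, a fold of 2.03 (1.17 to 3.84).

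In the control library, where 2303 macrophage-like cells lacked such a UMI and 1996 had one, the folds of without over with were 0.920 (0.850 to 0.996) for Nfkb1, 0.849 (0.747 to 0.965) for Nfkb2, 0.959 (0.930 to 0.989) for Nfkbia and 0.803 (0.730 to 0.882) for Tnfaip3. Control cells without one were shallower, with a median of 5055 UMIs against 6503 in control cells with one. Because the split is of detection and not of genotype, the folds of neither library measure an effect of Y loss, and its part was not tested.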

How the data were processed

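Single-cell 3′ RNA-seq (10x Genomics) of cardiac leukocytes gave 1 library each for LOY and control BMT hearts, each pooled from 3 mice. The deposited files hold whole-number UMI counts per gene and barcode. Cell Ranger 5.0.0 and the mm10 build are named in the submitters' processing notes. The annotation and the counting settings are not given in the sources used here. Gene positions come from GENCODE M21.

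Barcodes needed 500 or more UMIs, 200 or more genes and no more than 10% mitochondrial UMIs to be kept. In both libraries the highest doublet scores, 0.8% per 1000 barcodes, were removed (240 LOY and 424 control barcodes). Cells were normalised to 10000 UMIs and clustered with scanpy 1.11.5 (2000 variable genes, 30 components, 15 neighbours, Leiden resolution 1). Left out of clustering were the 10 genes and the other NF-κB subunit, IκB, upstream and negative regulator genes. Y-linked, mitochondrial, ribosomal, haemoglobin and receptor chain genes were left out as well. NF-κB targets and the digestion and immediate early genes were not. A cluster was named X-like from at least 3 markers, and 3 clusters stayed unnamed. Counts were summed per library and class, expressed as CPM, and compared where both libraries had at least 100 cells. A count of 0 was set to 3 counts in a log2 ratio, or given no difference where that limit was not below the other library. Genes at 10 CPM or more in either library were called measured. All 10 genes are reported. Of each pathway list the lowest and highest 2 log2 ratios are named, and for each of the 10 genes the 3 most similar profiles (Pearson's r of log2 CPM with 10 added) among genes reaching 50 CPM. Other genes named for their role (Y-linked genes, cluster leaders) fall outside that rule. The 10 genes and all lists were chosen with earlier results of these data known.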

Additional observations from a re-analysis of the deposited data

How the results depend on the processing

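Of 18 other settings, 15 were planned and 3 chosen after seeing the data. Counts in macrophage-like cells were recomputed under 15 of them, those of other classes under 7 to 10. In macrophage-like cells 3 genes instead of 5 were past 1.5-fold lower in LOY with 50 CPM added, 3 without the Egr1 cluster and 2 as a mean over clusters, against 6 with 1 CPM added and 7 with cells thinned to 1000 UMIs. With 50 CPM added the counts were 1 in monocyte-like and 0 in B cell-like cells, and centring on the median gene left 1 in B cell-like cells. In neutrophil-like cells 2 were lower with 1 CPM added, with doublets kept, or with each library clustered alone. With cells thinned to 1000 UMIs, 3 genes were higher in monocyte-like cells and 1 in dendritic cell-like cells. Of single genes, Tnip3 turned to 0.13 in the Hist1h1b cluster alone and Nfkbiz to 0.15 in the H2-Eb1 cluster alone. Values near 0 also changed sign: Bcl3 to 0.05 and Rela to −0.0012 in the Hist1h1b cluster, and Nfkb2 to −0.02 in the H2-Eb1 cluster. The cause of these changes was not tested. Over 17 settings the macrophage-like log2 ratio ranged from −0.96 to −0.47 for Nfkb1, from −1.53 to −0.27 for Tnfaip3 and from −1.15 to −0.28 for Nfkbia, with no change of sign. Settings that left a class under 100 cells in a library gave no value for it. Depth limits neutrophil-like and B cell-like values most. No paired analysis was possible because each group has 1 library, and no replicate could be left out.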
